A study of Mus musculus with 2 samples.

Results

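The prostaglandin and leukotriene genes were 8 genes of eicosanoid synthesis and signalling, Ptgs1, Ptgs2, Ptges, Ptger2, Ptger4, Alox5, Alox5ap and Ltc4s, among the 32285 gene rows of the series. They were taken by gene symbol, each symbol naming 1 row in the matrix of each library, and the choice did not rest on their values. The cells were immune cells from the lamina propria of the mouse colon, a layer of connective tissue beneath the epithelium, which the labels describe as cd11b+. CD11b, encoded by Itgam, is an integrin of myeloid cells. There were 2 single-cell libraries, titled Runx3_fl and Runx3, and each was the only library of its group. The study compared RUNX3 fl/fl-Lyz2-Cre mice, in which Cre driven by the myeloid gene Lyz2 removes the transcription factor Runx3, with RUNX3 fl/fl littermates, and it pooled male mice of 8 weeks. Neither title says whether Cre was present, so each library is called by its title and no genotype is given to it. With 1 library a group, the values below have no replicate check and no test was possible. The 95% intervals in parentheses take in counting error alone. Unless a sentence says otherwise, values in pairs are in the order Runx3_fl, Runx3.

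Eicosanoids are lipid signals made from arachidonic acid, which phospholipases free from membranes. The cyclooxygenases convert it to prostaglandin H2, from which terminal synthases make prostaglandin E2 and its relatives, and prostaglandin E2 acts on cells through the EP receptors. In the other branch 5-lipoxygenase, helped by its activating protein, makes leukotriene A4, which becomes the neutrophil attractant leukotriene B4 or the cysteinyl leukotriene C4. In the gut, prostaglandin E2 is known both for protecting the epithelium and for rising in inflammation.

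After the study's limits of 200 to 6000 genes and at most 15% mitochondrial UMIs, 11885 of 12968 and 8167 of 8953 cells remained. A UMI is a tag by which copies of 1 captured RNA are counted once. The deposited matrices held 146204416 and 75478164 of them, and the kept cells had a median of 9573 and 5731. Cells were sorted into 7 gates by UMIs of defining genes: Csf1r with C1qa for macrophages, Ly6c2 with Csf1r and no C1qa for monocytes, Csf3r for neutrophils, Flt3 for dendritic cells, Ncr1 for NK cells, Cd3e for T cells and Cd79a for B cells. A cell positive for more than 1 gate was left out, which removed 1168 and 1599 cells. In Runx3 those cells held 46.4% of the Ptgs1 UMIs, 39.4% of the Ptgs2 UMIs and 36.7% of the Ptges UMIs of all kept cells. The gates held 254 and 276 macrophages, 442 and 548 monocytes, 1378 and 1448 Csf3r cells, 910 and 455 Flt3 cells, 1294 and 101 NK cells, 2838 and 389 T cells and 353 and 1243 B cells. The 2 libraries shared 37 cell barcodes.

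The markers went against the name of 1 gate, and Itgam RNA was set beside the cd11b+ label. Itgam was at 43.4 and 27.5 UMIs per 1000000 UMIs of the gate (CPM) in the T gate and at 45.9 and 21.9 CPM in the B gate. Macrophages held 132 and 230 CPM of it and Flt3 cells 37.5 and 103 CPM. The label names a surface protein, which was not measured here, so these RNA levels cannot decide whether it holds. The Csf3r gate was mixed: 694 and 725 of its cells also carried a UMI of the monocyte and macrophage gene Csf1r. The 6 neutrophil markers of that gate summed to 4636 and 40152 CPM, so it is called the Csf3r gate throughout. In its cells without Csf1r these markers summed to 11880 and 91084 CPM. The maturing neutrophil granule gene Ltf had 75 UMIs in 51 of those cells in Runx3_fl and 12872 UMIs in 181 of them in Runx3. Cells picked by an Ltf UMI were thus unlike in the libraries, and they are described only within Runx3. The B gate held 15681 and 7706 CPM of the 3 plasma cell markers. Runx3 itself was at 157 and 245 CPM in the macrophage gate, higher in the library labelled Runx3, and at 841 and 627 CPM in the NK gate.

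The sequences upstream of 4 genes are shown because their levels differed most between the libraries in myeloid gates, a choice made with the values known: Ptgs2 and Ptger4 were lower, and Ptgs1 and Alox5 higher, in the library labelled Runx3. Each is the 250 bases before the transcription start in RefSeq on GRCm38.p6, 5′ to 3′ on the gene's strand. Capitals mark the Runx core TGTGGT or TGCGGT on either strand, ACCACA being the first of these read on the other strand.
Ptgs2, chr1:150099781-150100030, plus strand: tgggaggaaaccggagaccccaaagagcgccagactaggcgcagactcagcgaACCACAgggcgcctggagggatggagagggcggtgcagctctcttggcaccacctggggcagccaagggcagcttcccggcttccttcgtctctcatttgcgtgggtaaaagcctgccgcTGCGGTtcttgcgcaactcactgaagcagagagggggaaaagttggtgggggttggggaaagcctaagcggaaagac
Ptgs1, chr2:36230176-36230425, plus strand: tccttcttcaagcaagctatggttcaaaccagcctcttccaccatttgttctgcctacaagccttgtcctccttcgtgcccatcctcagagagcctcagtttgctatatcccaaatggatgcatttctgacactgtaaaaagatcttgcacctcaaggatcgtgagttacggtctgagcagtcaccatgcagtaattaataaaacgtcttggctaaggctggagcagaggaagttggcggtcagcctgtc
Ptger4, chr15:5244188-5244437, minus strand: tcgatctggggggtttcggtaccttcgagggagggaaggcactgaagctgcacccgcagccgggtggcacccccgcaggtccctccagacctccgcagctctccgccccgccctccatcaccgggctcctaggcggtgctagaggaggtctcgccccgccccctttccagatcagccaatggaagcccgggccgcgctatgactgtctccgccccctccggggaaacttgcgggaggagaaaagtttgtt
Alox5, chr6:116461179-116461428, minus strand: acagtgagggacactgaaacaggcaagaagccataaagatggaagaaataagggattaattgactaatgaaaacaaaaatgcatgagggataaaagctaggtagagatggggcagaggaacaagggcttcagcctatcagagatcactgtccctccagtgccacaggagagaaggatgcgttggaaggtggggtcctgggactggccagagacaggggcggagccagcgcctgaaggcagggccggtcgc
Of the 7 genes with a RefSeq window, Ptgs2 held 1 core of each form, 197 and 77 bases before the start, and Ltc4s held 1. Either form was in 18.6% of all 32851 windows of this length. The TATA box TATAAA, the cAMP response half-site TGACG and the E box CACGTG were in none of the 7 windows, against 12.4%, 17.8% and 6.02% of all windows. The NF-kB pattern, read loosely as GGG and CC with any 5 bases between them, was in 4 of the 7 (Ptgs2, Ptges, Ptger4 and Alox5) and in 45.8% of all windows. Bases after the start were not searched, so absence from a window is not absence from the promoter. These matches describe letters in a window and say nothing of binding.

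Ptgs2 was highest in the macrophage, monocyte and Csf3r gates in both libraries, and its level there was lower in the library labelled Runx3. It encodes cyclooxygenase-2, the inducible enzyme of inflamed tissue, on chromosome 1 from 150100031 to 150108227 on the plus strand in GENCODE M21 (GRCm38). In macrophages its level was 3133 CPM (3072 to 3195) and 1136 CPM (1092 to 1182). In monocytes the levels were 2465 CPM (2424 to 2506) and 852 CPM (822 to 881). In the Csf3r gate they were 3137 CPM (3103 to 3171) and 870.4 CPM (853 to 888). The intervals of the libraries were apart in all 3 gates. The ratios, as log2 of CPM plus 1 in Runx3 over Runx3_fl, were -1.46 (-1.53 to -1.40), -1.53 (-1.59 to -1.48) and -1.85 (-1.88 to -1.82). Here and below, the interval of a ratio is that of the counts with nothing added, so at low CPM it is not centred on the ratio. Il1b, a cytokine gene, was also lower in Runx3, at 5144 and 1698, 4318 and 1304, and 5728 and 1852 CPM in that order of gates. So was the lysozyme gene Lyz2, at 2946 and 969, 3213 and 910, and 3641 and 1818 CPM. The neutrophil gene S100a8 was higher, at 4.41 and 167, 11.7 and 170, and 1686 and 20311 CPM.

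Outside these gates Ptgs2 was lower, and over each whole gate it differed less. Flt3 cells held 452 and 320.3 CPM, a ratio of -0.50 (-0.57 to -0.42). T cells held 98.5 and 113 CPM, B cells 69.9 and 99.2 CPM and NK cells 65.7 and 68.0 CPM. In the order of levels, the intervals of macrophages and Csf3r cells overlapped at the top in Runx3_fl. In Runx3 macrophages stood apart at the top, and those of Csf3r cells and monocytes overlapped. The lymphoid levels were close in size to what other myeloid genes showed there. In B cells Ptgs2 was at 8.71% and 18.2% of its level over all kept cells. The same share was 6.72% and 15.3% for the cytokine gene Il1b and 4.66% and 13.2% for the lysozyme gene Lyz2, but 2.48% and 2.69% for the neutrophil gene S100a8. Free RNA and Ptgs2 made by lymphoid cells could not be told apart here, so the values of the whole lymphoid gates are credited to neither. Subsets of these gates went past 2-fold. T cells without Cd4 or Cd8a held 419 and 171 CPM, a ratio of -1.29 (-1.49 to -1.10), and the top 10% of those cells held 94.4% and 81.3% of the UMIs, while T cells with Cd4 alone held 57.3 and 83.9 CPM. B cells without Ms4a1, a gene of mature B cells, held 71.5 and 167 CPM, a ratio of 1.21 (1.03 to 1.41). These 243 and 500 cells were unlike in depth, with medians of 21834 and 4449 UMIs and 4 and 110 cells under 2000 UMIs.

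The lower Ptgs2 level held across the cells of a gate. The median macrophage had 25.9 and 5.27 Ptgs2 UMIs per 10000 of its UMIs. Medians were 19.7 and 2.60 in monocytes and 22.9 and 3.63 in the Csf3r gate. The highest cells differed less: the maximum was 137 and 104 in macrophages and 157 and 149 in monocytes. Because the libraries differed in depth, shares of cells with a UMI were also taken with each cell thinned to 2000 UMIs. Thinned, 86.7% (81.8 to 90.7) and 59.3% (52.6 to 65.8) of macrophages had a Ptgs2 UMI, against 91.7% and 72.5% before thinning. The thinned shares in B cells, given for comparison, were 7.16% and 9.46%, at median depths of 16698 and 5561 UMIs. Before thinning these were 27.5% and 22.3%.

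**Figure D1:**
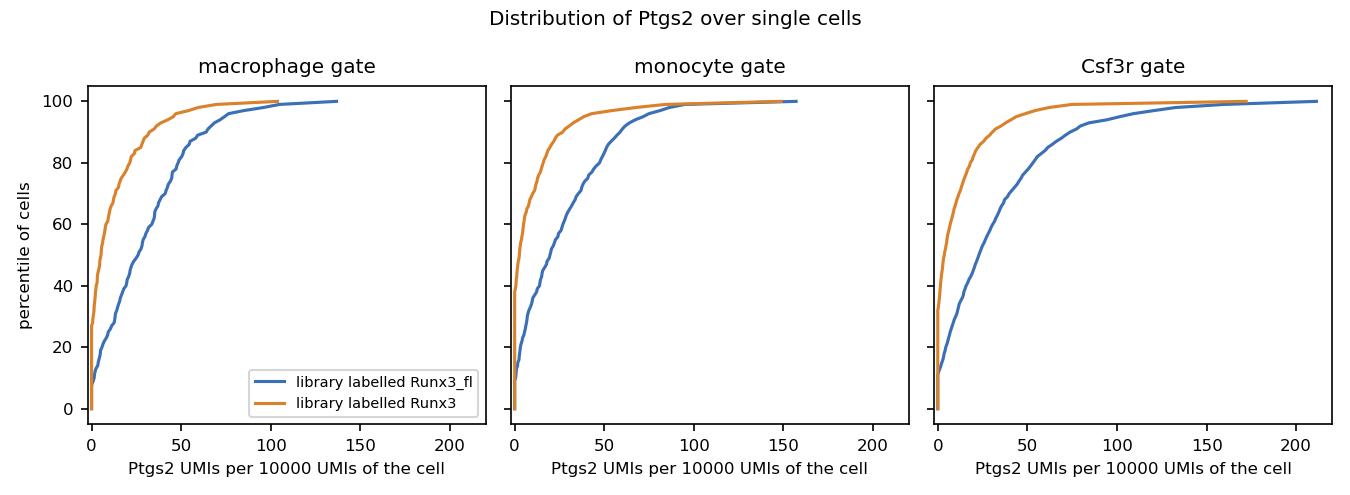
Cumulative distribution of Ptgs2 over the cells of the macrophage, monocyte and Csf3r gates, with Ptgs2 UMIs per 10000 UMIs of the cell on the horizontal axis and the percentile of cells on the vertical axis, 1 line per library. The line of the library labelled Runx3 lies to the left, with a median of 5.27 against 25.9 in macrophages.

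Splitting the macrophage and Csf3r gates left Ptgs2 lower in the library labelled Runx3 in each subset, by different amounts. Macrophages without a UMI of Ly6c2, a gene of recently arrived monocytes, held 2629 and 762 CPM, a ratio of -1.79 (-1.97 to -1.61), and those with one 3360 and 1211 CPM, a ratio of -1.47 (-1.54 to -1.40). Macrophages with a UMI of Nos2, the inducible nitric oxide synthase of activated macrophages, were 62 and 8 cells. They held 3644 and 2235 CPM, a ratio of -0.71 (-0.90 to -0.52), and those without Nos2 2939 and 1079 CPM, a ratio of -1.44 (-1.51 to -1.38). Csf3r cells with Csf1r held 3149 and 959 CPM, and those without it 3107 and 702 CPM. In Runx3 the 181 cells with Ltf and no Csf1r held 324 CPM. In the Flt3 gate, cells with a UMI of Ccr7, a receptor of migrating dendritic cells, held 593 and 489 CPM. Flt3 cells with Xcr1, a marker of cross-presenting dendritic cells, held 67.4 and 113 CPM, near the lymphoid levels.

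Ptgs1 differed the other way in the macrophage, monocyte and Csf3r gates. It encodes cyclooxygenase-1, the constitutive form, on chromosome 2 from 36230426 to 36252272 on the plus strand. Macrophages held 16 UMIs, or 5.04 CPM (2.88 to 8.18), and 147 UMIs, or 66.3 CPM (56.0 to 77.9). The ratio was 3.48 (2.97 to 4.56). The RNA came from few cells: 10 of 254 and 48 of 276 macrophages had a UMI, and the top 10% of cells held 86.4% of the UMIs in the library labelled Runx3. Thinned, the shares were 1.21% (0.250 to 3.49) and 7.52% (4.44 to 11.8), whose intervals are apart. In the same gate the 11 macrophage markers summed to 4039 and 8120 CPM, and their part in this ratio was not tested.

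Ptgs1 was higher in macrophages with and without Ly6c2, at 62.2 against 3.19 CPM and at 86.8 against 9.15 CPM. In the Csf3r gate the levels were 4.93 CPM (3.67 to 6.48) and 19.3 CPM (16.8 to 22.0), a ratio of 1.77 (1.52 to 2.44). That ratio came to 0.46 with each cell thinned to 2000 UMIs and to 0.38 without cells over 2 times the median UMI count, and the thinned shares of 1.10% (0.604 to 1.84) and 2.37% (1.58 to 3.41) overlapped. In Runx3 the cells of that gate with Ltf and no Csf1r held 57.0 CPM. Monocytes held 1.79 and 5.00 CPM, from 10 and 19 UMIs. B cells held 0 and 22 UMIs, and the exact interval of the ratio of the counts began at 4.14-fold. Against the 3 counts that a 0 allows over the gate, the level in Runx3 was 5.55-fold higher, with the error of the 22 UMIs left out. In Runx3 that level was 19.1% of the one over all kept cells, a share that was 18.2% for Ptgs2. The B cell ratio was no longer called past 2-fold with each cell thinned to 2000 UMIs or with 10 CPM added. In the remaining gates Ptgs1 was at 1.92 CPM or less. Of the macrophages with a Ptgs1 UMI in the library labelled Runx3, 36 of 48 also had a Ptgs2 UMI, while 200 of all 276 did.

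Ptges was highest in the same 3 gates as Ptgs2, with a Pearson r of 0.92 between their levels over the 14 points of gate and library, which share 2 libraries and their depths, but it differed little between the libraries. It encodes microsomal prostaglandin E synthase-1, which makes prostaglandin E2 downstream of cyclooxygenase-2, on chromosome 2 from 30889471 to 30929863 on the minus strand. Its level in macrophages was 23.9 CPM (18.9 to 30.0) and 24.8 CPM (18.7 to 32.3), a ratio of 0.05 (-0.48 to 0.57). The Csf3r gate held 36.9 and 30.8 CPM and monocytes 23.3 and 17.1 CPM. Elsewhere it stayed at or below 5.75 CPM. No gate was past 2-fold. In macrophages, 48 of 51 and 27 of 32 cells with a Ptges UMI also had a Ptgs2 UMI, against 233 of 254 and 200 of 276 of all macrophages.

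The receptor genes differed from each other. Ptger4 encodes the EP4 receptor, which raises cyclic AMP when prostaglandin E2 binds, on chromosome 15 from 5206661 to 5244187 on the minus strand. In macrophages it was at 294 and 108 CPM, from 932 and 240 UMIs. The ratio was -1.43 (-1.65 to -1.23). Monocytes held 287 and 145 CPM, a ratio of -0.97 (-1.12 to -0.84), and the Csf3r gate 223 and 91.4 CPM, a ratio of -1.28 (-1.40 to -1.18). Thinned, 34.7% (28.8 to 41.0) and 16.4% (11.8 to 21.9) of macrophages had a Ptger4 UMI, against 74.8% and 35.9% before thinning.

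NK cells held the highest Ptger4 level in each library, 303 and 228 CPM, overlapping with macrophages in Runx3_fl and apart from the next gate in Runx3. Flt3 cells held 254 and 186 CPM and T cells 84.6 and 106 CPM. B cells differed the other way, with 28.6 CPM (24.6 to 33.0) and 64.8 CPM (59.5 to 70.5), a ratio of 1.15 (0.94 to 1.43). That difference was in cells without Ms4a1, at 23.0 and 60.3 CPM, while cells with it held 59.4 and 67.9 CPM. The cells without Ms4a1 had median depths of 21834 and 4449 UMIs, so that subset was unlike in the libraries. In the Csf3r gate the difference depended on which cells were counted. Cells with Csf1r held 257 and 105 CPM and cells without it 133 and 65.7 CPM, but cells with S100a8 and no Csf1r held 52.1 and 56.5 CPM, a ratio of 0.11 (-0.27 to 0.52). The ratio of the whole gate came to -0.87 with each cell thinned to 2000 UMIs and to -0.36 without cells over 2 times the median UMI count. Thinned, that of B cells came to 0.31.

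Ptger2 encodes the EP2 receptor, on chromosome 14 from 44988195 to 45003820 on the plus strand, and was low in every gate. The Csf3r gate held 13.5 and 8.62 CPM, a ratio of -0.60 (-1.04 to -0.27), and T cells 10.4 and 15.9 CPM, a ratio of 0.57 (0.16 to 1.03). Flt3 cells held 5.99 CPM (4.81 to 7.37) and 2.15 CPM (1.11 to 3.76), from 89 and 12 UMIs, a ratio of -1.15 (-2.48 to -0.60). NK cells held 50 UMIs and 1 UMI, with a ratio whose interval reached from -7.55 to 0.32. Among T cells split by Cd4 and Cd8a, Ptger2 was highest in cells with Cd4 alone, at 17.1 and 26.4 CPM. Cells with neither gene held 11.01 and 15.29 CPM, and cells with Cd8a alone 2.71 and 1.48 CPM. The value of the Cd8a cells in Runx3 rests on 1 UMI in 73 cells. T cells with the regulatory gene Foxp3 held 14.6 and 57.9 CPM, from only 4 and 21 UMIs.

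Among the gates Alox5 was highest in the Csf3r gate, and it was higher there in the library labelled Runx3. It encodes 5-lipoxygenase, the enzyme that opens the leukotriene branch, on chromosome 6 from 116410077 to 116461178 on the minus strand. The Csf3r gate held 70 UMIs, or 6.77 CPM (5.27 to 8.55), and 485 UMIs, or 43.1 CPM (39.3 to 47.1), a ratio of 2.51 (2.31 to 3.05). These were 58.8% and 63.3% of all Alox5 UMIs in kept cells. Cells of the gate without Csf1r held 15.4 and 92.7 CPM, cells with it 3.47 and 16.8 CPM. In Runx3 the cells with Ltf and no Csf1r held 173 CPM, from 291 UMIs. Without cells over 2 times the median UMI count the ratio of the gate came to 0.98, under 2-fold. The neutrophil markers of the gate, given above, moved the same way, and their part was not tested. Macrophages held 2 and 10 Alox5 UMIs, and no other gate passed 2.51 CPM.

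Alox5ap encodes FLAP, the protein that presents arachidonic acid to 5-lipoxygenase, on chromosome 5 from 149264767 to 149288153 on the plus strand. All 4 myeloid gates held it, lowest in macrophages in both libraries, and in Runx3 the Csf3r gate stood apart at the top. Macrophages held 207 CPM (191 to 223) and 247 CPM (226 to 268), monocytes 313 and 337 CPM and Flt3 cells 326 and 339.9 CPM, with ratios of 0.25, 0.10 and 0.06. The Csf3r gate held 321 and 517 CPM, a ratio of 0.68 (0.62 to 0.75), and in Runx3 its cells with Ltf and no Csf1r held 851 CPM. Of the Csf3r cells with an Alox5 UMI, 42 of 55 and 143 of 159 also had an Alox5ap UMI, against 909 of 1378 and 965 of 1448 of all cells in the gate. In macrophages the thinned share of cells with an Alox5ap UMI was 24.2% and 34.1%, whereas the unthinned share went the other way, 70.9% and 53.6%, with median depths of 12785.5 and 6380.5 UMIs.

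The lymphoid gates showed more Alox5ap in the library labelled Runx3, at low levels. NK cells held 8.40 and 28.7 CPM, T cells 12.5 and 42.8 CPM and B cells 5.78 and 40.5 CPM, with ratios of 1.66 (1.13 to 2.38), 1.69 (1.49 to 2.05) and 2.61 (2.32 to 3.34). Macrophage markers moved with it: the 11 of them, of which each was detected except Mertk in NK cells of Runx3_fl, summed to 31.1 and 161 CPM in NK cells, 59.2 and 336 CPM in T cells and 91.0 and 506 CPM in B cells. The 6 neutrophil markers, with Csf3r at 0 by the gating and Cxcr2 at 0 in NK cells of Runx3_fl, moved the same way. They summed to 7.15 and 224 CPM in NK cells, 12.4 and 268 CPM in T cells and 10.3 and 285 CPM in B cells. In B cells Alox5ap was at 4.93% and 15.6% of its level over all kept cells. The same share was 4.66% and 13.2% for Lyz2, 2.48% and 2.69% for S100a8 and 12.1% and 24.8% for the cytokine gene Tnf. The part of these markers in the result was not tested.

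Ltc4s encodes leukotriene C4 synthase, the enzyme of the cysteinyl leukotrienes, on chromosome 11 from 50236461 to 50238616 on the minus strand. It was near the limit of detection, with 110 and 144 UMIs in all kept cells. Its highest gate was macrophages in Runx3_fl, at 3.15 CPM, and Flt3 cells in Runx3. Flt3 cells held 21 and 22 UMIs, or 1.41 CPM (0.875 to 2.16) and 3.95 CPM (2.48 to 5.98), a ratio of 1.04 (0.55 to 2.42). With nothing added the level was 2.79-fold higher in Runx3, and the interval belongs to that value. Cells with both Cpa3 and Ms4a2, genes of mast cells and basophils, which are known for leukotriene C4, were 2 and 6 in number. They held 0 UMIs of Ltc4s in both libraries, and 1 and 20 UMIs of Alox5.

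**Figure D2:**
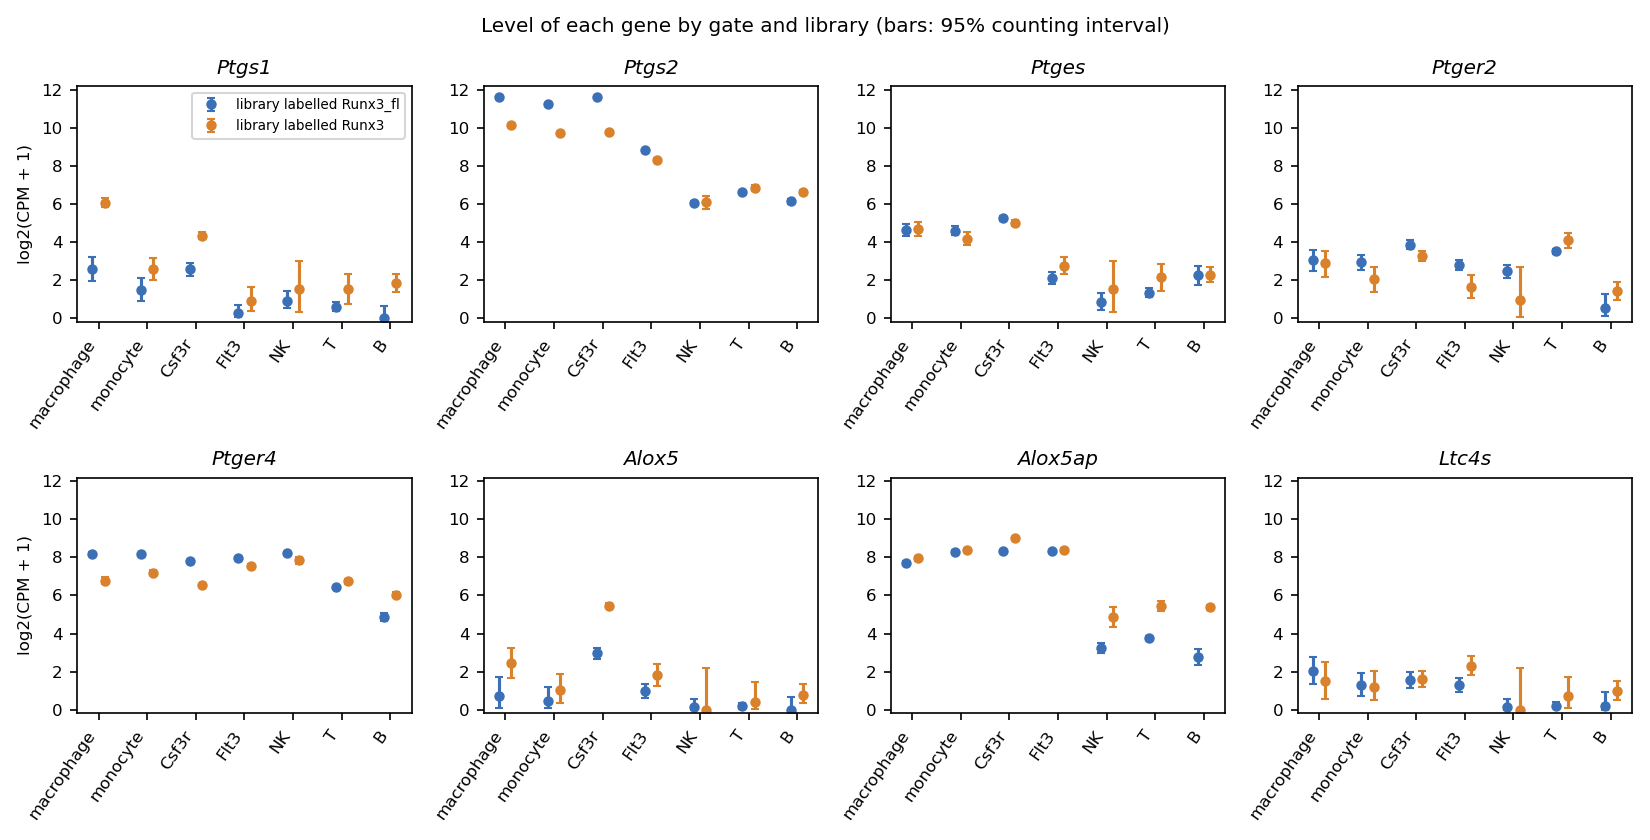
Level of each of the 8 genes as log2 of CPM plus 1 on the vertical axis, by gate on the horizontal axis, with 1 point per library and bars for the 95% counting interval. Ptgs2 stands highest in the macrophage, monocyte and Csf3r gates and lies lower there in the library labelled Runx3. In that library Ptgs1 lies higher in the macrophage and Csf3r gates and Alox5 in the Csf3r gate, while the Alox5 bars of macrophages overlap.

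A ratio was called past 2-fold where its log2 was at least 1 or at most -1 and the libraries held at least 10 UMIs together. In macrophages 2 of the 8 genes were called higher in the library labelled Runx3, Ptgs1 and Alox5, against 15.5% of all 11556 genes tested. Another 2, Ptgs2 and Ptger4, were called lower there, against 3.53%. The Alox5 call in macrophages rests on 2 and 10 UMIs from 1 and 6 cells, and it was lost in 4 of 11 alternatives. In monocytes 1 was higher, Ptgs1, against 14.3% of genes, and 1 lower, Ptgs2, against 2.41%. In the Csf3r gate the same 4 genes were called as in macrophages, 2 higher against 13.6% and 2 lower against 2.50%. In Flt3 cells Ltc4s was higher, against 9.14%, and Ptger2 lower, against 1.88%.

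Of the members called in the lymphoid gates, only Alox5ap was called in none of the macrophage, monocyte, Csf3r and Flt3 gates. In NK cells Alox5ap was higher, against 7.40% of genes, and Ptger2 lower, against 5.95%. In T cells Alox5ap was higher, against 13.5%, and 0 members were lower, against 7.26%. In B cells 3 were higher, Ptgs1, Ptger4 and Alox5ap, against 20.0%, and 0 lower, against 12.7%. Of 56 pairs of gene and gate, 48 had 10 UMIs, 11 were higher and 7 lower in the library labelled Runx3. Of all genes tested, 7.40% to 20.0% by gate were higher and 1.88% to 12.7% lower. The median log2 ratio of the members with 10 UMIs was -0.06 in macrophages, -0.42 in monocytes, -0.10 in the Csf3r gate and 0.06 in Flt3 cells, beside 0.24, 0.27, 0.33 and 0.16 for all genes tested. It was 0.34, 0.69 and 1.00 in NK, T and B cells, beside 0.05, 0.10 and 0.26. Setting Ptgs1 at 5.55-fold in B cells could not change the median, since its ratio of 1.85 already lay above it.

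**Figure D3:**
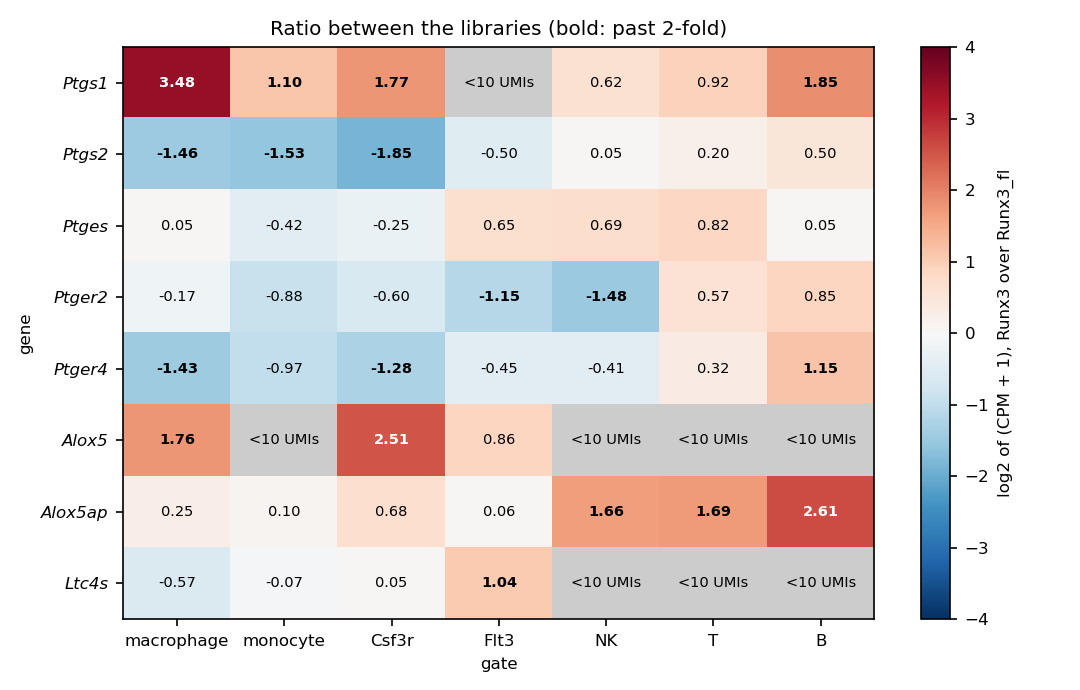
Log2 ratio of CPM plus 1, library labelled Runx3 over Runx3_fl, for each of the 8 genes (rows) in each gate (columns), in red where higher and blue where lower, with grey for pairs under 10 UMIs and bold for pairs past 2-fold. Ptgs2 is blue in the macrophage, monocyte and Csf3r gates, from -1.46 to -1.85, and Ptgs1 in macrophages is the deepest red at 3.48.

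**Figure D4:**
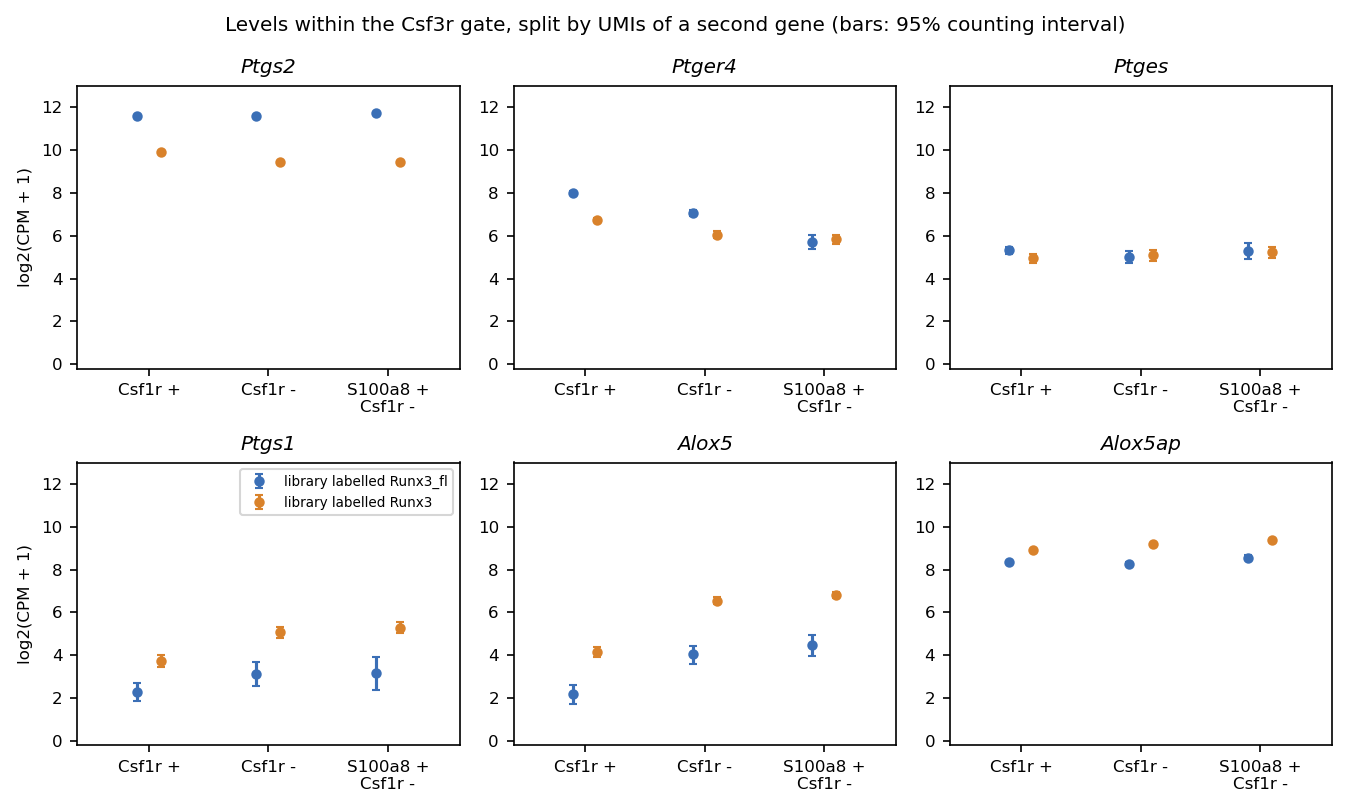
Levels of 6 of the genes within the Csf3r gate as log2 of CPM plus 1, for cells with a Csf1r UMI, without one, and with S100a8 and no Csf1r, 1 point per library with 95% counting intervals. Ptgs2 is lower in the library labelled Runx3 in all 3 subsets, Ptgs1, Alox5 and Alox5ap are higher, and Ptger4 is apart only in the subsets with and without Csf1r.

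Of the other genes of the pathway, a list of 38 was examined in the same way. Among its 266 pairs of gene and gate, 180 had 10 UMIs, 41 were higher in the library labelled Runx3 and 16 lower. The shares over all genes tested were 7.40% to 20.0% higher and 1.88% to 12.7% lower, by gate. Upstream of the members, Pla2g4a, the cytosolic phospholipase A2 that frees arachidonic acid, was highest in macrophages, as Ptgs2 was in the library labelled Runx3, at 149.9 and 100.1 CPM, a ratio of -0.58 (-0.82 to -0.35). In macrophages 3 of the 23 genes of the list with 10 UMIs were higher, Ptgir, Hpgd and Ggt5, and 2 lower, Abcc1 and Fpr2, against 15.5% and 3.53% of all genes. Abcc1, a transporter that exports leukotriene C4, was at 294 and 119 CPM in macrophages, 349 and 137 CPM in monocytes and 266 and 109 CPM in the Csf3r gate. Fpr2, a receptor for lipoxin A4 and formyl peptides, was at 101 and 47.8 CPM in macrophages and 109 and 40.8 CPM in monocytes.

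In the Csf3r gate, 8 of 29 genes of the list were higher and 2 lower, against 13.6% and 2.50% of all genes. Lta4h, the hydrolase that makes leukotriene B4, was at 20.6 and 109 CPM, a ratio of 2.35 (2.19 to 2.62). Ltb4r1, the high-affinity receptor of leukotriene B4, was at 27.7 and 67.5 CPM. Anxa1, a phospholipid-binding protein that damps inflammation, was at 61.7 and 602 CPM, a ratio of 3.27 (3.17 to 3.41). In Runx3 these 3 genes and Alox5 each stood highest in this gate.

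In monocytes 2 of 23 genes of the list were higher and 3 lower, against 14.3% and 2.41% of all genes, and in Flt3 cells 5 of 26 were higher and 0 lower, against 9.14% and 1.88%. In NK cells 5 of 23 were higher and 1 lower, against 7.40% and 5.95%. In T cells 9 of 29 were higher and 3 lower, against 13.5% and 7.26%, and in B cells 9 of 27 were higher and 5 lower, against 20.0% and 12.7%. In B cells Cyp4f18, which degrades leukotriene B4, was at 11.4 and 64.0 CPM, and Hpgds, a prostaglandin D synthase, at 21.2 and 60.5 CPM. In the B gate the 11 macrophage markers summed to 91.0 and 506 CPM and the 6 neutrophil markers, Csf3r at 0, to 10.3 and 285 CPM, and their part was not tested. Akr1b3, an aldose reductase that can make prostaglandin F2, was lower there, at 97.0 and 42.4 CPM. The median log2 ratio of the list was 0.17 in macrophages, 0.13 in monocytes, 0.48 in the Csf3r gate and 0.30 in Flt3 cells, and 0.31, 0.14 and 0.15 in NK, T and B cells, beside the values for all genes given above.

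The genes whose pattern over the 14 points of gate and library was most like that of a member were named by Pearson r across 5634 genes, as a description. For Ptgs2 these were the cytokine genes Il1b (0.99) and Tnf (0.99) and Calhm6 (0.99). For Ptgs1 they were Daglb (0.91), Ccl7 (0.90) and Ccl12 (0.90). Alox5 was most like Abca13 (0.94), Cebpe (0.93), a transcription factor of granulocyte maturation, and Dach1 (0.93). Alox5ap was most like Ifi207 (0.99), Plbd1 (0.99) and Ptpro (0.99), and Ptges most like C3 (0.98), Slc11a1 (0.97) and Rab20 (0.97). Ptger4 was most like Dyrk2 (0.96), Pik3r1 (0.95) and Gm45716 (0.93), Ptger2 most like Hif1a (0.86), Abhd17c (0.81) and Myl12b (0.81), and Ltc4s most like Cfp (0.94), Ccdc162 (0.93) and Il1r2 (0.92). The points share 2 libraries and their depths, and r for Ptger2 and Ltc4s rests on few UMIs.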

How the data were processed

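Single cells were profiled with 10x Genomics 3′ chemistry, version 3, in 2 libraries. The authors deposited UMI counts as filtered matrices with a row for each gene, in whole numbers with no normalization, written by Cell Ranger 7.1.0 per the file headers. The submitters' processing notes name mm10 and Seurat 4. Whether reads were assigned by strand is not given in the sources used here; no member shares exons with another gene on its own strand, and 5 do on the opposite strand (GENCODE M21, which held 32158 of the 32285 gene IDs).

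Cells had 200 to 6000 genes and at most 15% mitochondrial UMIs. The upper gene limit and the exclusion of cells positive for more than 1 gate were the treatment of doublets, and no doublet caller was run. A gate needed 1 UMI of its gene. UMIs were summed over a gate's cells and divided by all UMIs of the gate (CPM), with exact Poisson intervals. Ratios are log2 with 1 CPM added, with the exact conditional binomial interval of the counts; shares of cells carry Clopper-Pearson intervals. A count of 0 was taken to allow 3. Thinning to 2000 UMIs per cell left out 616 and 1868 cells. The ratio step was tested on simulated sums.

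The members and gene lists were chosen with earlier results of these data known. Genes named beside the 8 members were those of a fixed pathway list of 40 names, of which 38 matched 1 row, at 50 CPM or more in a gate and past 2-fold there or highest in the same gate as a member, and for each member the 3 genes most like it; other genes mark cell types or split gates. The Runx motif was chosen after the sequences had been read. Promoter sequences are from RefSeq (GRCm38.p6), which held 7 of the 8 members. Software was matplotlib 3.10.9, pandas 2.3.3, scipy 1.17.1 and numpy 2.4.6 under Python 3.11.15.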

Additional observations from a re-analysis of the deposited data

Results flagged for a closer look

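Over whole gates Ptger4 moved in opposite directions, which was not tested. Its log2 ratio between the libraries, Runx3 over Runx3_fl, was 2.59 higher in B cells than in macrophages, and 2.43 higher in B cells than in the Csf3r gate. The ratio came to 0.19 in B cells with Ms4a1, and to 0.11 in Csf3r cells with S100a8 and no Csf1r. In macrophages it stayed past 2-fold in every alternative.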

How the results depend on the processing

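Of the 18 pairs of gene and gate past 2-fold, 17 kept their direction in every one of the 13 planned and 2 added alternatives that touched them, and 8 stayed past 2-fold in each: Ptgs2 in macrophages, monocytes and the Csf3r gate, Ptgs1 and Ptger4 in macrophages, and Alox5ap in NK, T and B cells. The exception was Ptger4 in the Csf3r gate, whose ratio turned to 0.11 in cells with S100a8 and no Csf1r, a subset added after seeing the data. The 11 pairs higher in the library labelled Runx3 became 6 with each cell thinned to 2000 UMIs, 7 without cells over 2 times the median UMI count, 5 with 10 CPM added and 17 with 0.1 CPM added. Under the other alternatives there were 8 to 13, and the 7 pairs lower there became 5 to 9. Without the cells of high UMI count, Alox5 in the Csf3r gate came to 0.98. With Ms4a1 required, Ptger4 in B cells came to 0.19. Of the pairs that were not called, 14 passed 2-fold in at least 1 alternative, Ptger4 in monocytes among them. The causes were not tested. UMI counts were low for Ptgs1 outside the macrophage and Csf3r gates, Alox5 outside the Csf3r gate, Ptger2 in NK cells and Ltc4s everywhere. Ptgs1 in the Csf3r gate and Ptger4 in the Csf3r and B gates were not called with each cell thinned to 2000 UMIs. Nor were they called without the cells of high UMI count. No paired analysis was possible because each group had 1 library, and no library could be left out for the same reason.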
